A study of Rattus norvegicus with 12 samples.

Results

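The chemokine family of the rat retina was examined after an excitotoxic injury, as the protein-coding genes whose symbols name a chemokine ligand (Ccl, Cxcl, Cx3cl1 and Xcl1), a signalling receptor (Ccr, Cxcr, Cx3cr1 and Xcr1) or an atypical receptor (Ackr1 to Ackr4 and Ccrl2). This gave 55 of 30560 genes in the deposited table, 32 ligands, 18 signalling receptors and 5 atypical receptors. A further gene with a matching name, Ccl22, was annotated as a long non-coding RNA and was left out.

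The study sequenced total RNA of the retina in 12 rats, with 1 library per rat. In the control group 6 rats received 2 µL of PBS into the vitreous, and in the other group 6 rats received 2 µL of 20 mM NMDA, which opens glutamate receptors whose overstimulation kills inner retinal neurons and which serves here as a glaucoma model. Both groups were thus injected, and no uninjected eye was analysed here. Not given in the sources used here were the rats' strain, sex and age and the interval between injection and collection. Libraries are named PBS 1 to PBS 6 and NMDA 1 to NMDA 6 by the numbers in their labels.

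Chemokines are small secreted or membrane-tethered proteins that attract white blood cells along a gradient. They are classed by the spacing of their first cysteines (CC, CXC, CX3C and C) and act through G protein-coupled receptors that signal mainly through Gi proteins, Rac and phosphoinositide 3-kinase. Inflammatory chemokines are switched on in glia, endothelium and macrophages by cytokines, whereas homeostatic ones such as Cxcl12 and Cx3cl1 are made in resting tissue. Atypical receptors bind chemokines without the usual G protein signal and remove or transport them.

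Total counts ran from 16415611 (PBS 3) to 34022023 (NMDA 3). Libraries of the groups separated fully on the first principal component, and PBS 5 was the PBS library nearest to the NMDA libraries, and NMDA 1 stood apart on the second. Of 9 ganglion cell markers 8 fell, and of 10 microglia and macrophage markers 7 rose and 1 fell. Of all genes tested 20.4% rose and 17.5% fell. Because whole retinas were sequenced, more cells of a type and more RNA per cell cannot be told apart.

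Levels below are CPM (counts per total of the library after TMM scaling), given as the lowest, median and highest of the 6 libraries of a group. Log2 fold changes are NMDA minus PBS with their SE, and adjusted p-values are from edgeR's quasi-likelihood test (Benjamini-Hochberg over all 16260 genes tested), with a threshold of 0.05. Of the 55 members, 28 had enough counts to be tested, 24 had a count but too few, and 3 (Ccl21, Ccl26 and Cxcr1) had no count in any library, which at 3 counts over the 12 libraries allows up to 0.00918 CPM.

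With NMDA, 8 ligand genes (Ccl2, Ccl24, Cxcl1, Cxcl6, Cxcl9, Cxcl11, Cxcl16 and Cxcl17) and 5 receptor genes (Ccr2, Ccr7, Cx3cr1 and Cxcr4 among them) were higher, and the 2 abundant ligand genes Cxcl12 and Cx3cl1 were lower. Of the 28 tested members, 13 rose (46.4%, against 20.4% of all genes tested) and 2 fell (7.14%, against 17.5% of all genes tested). Of the 28, 12 rose at least 2-fold, against 4.58% of all genes tested, and 8 at least 4-fold, against 1.27%. The median log2 fold change was 0.91 in the tested members and 0.01 in all genes tested. The filter shapes these counts, since it asks for 0.36 CPM in 6 libraries and a gene can reach that through its NMDA libraries. Among the 15 members with all 6 PBS libraries above that level, 4 rose (Cxcl16, Cx3cr1 and Cxcr4 among them) and 2 fell. Of all such genes 20.1% rose and 18.6% fell. The other 9 risen members were among the 13 with fewer PBS libraries above it, of which 0 fell. In all, 1001 genes were in that class, of which 25.5% rose and 1.70% fell. All 8 members that rose at least 4-fold were among those 9, and reached the filter through their NMDA libraries. The 1.27% is over all genes tested, not over that class.

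**Figure D1:**
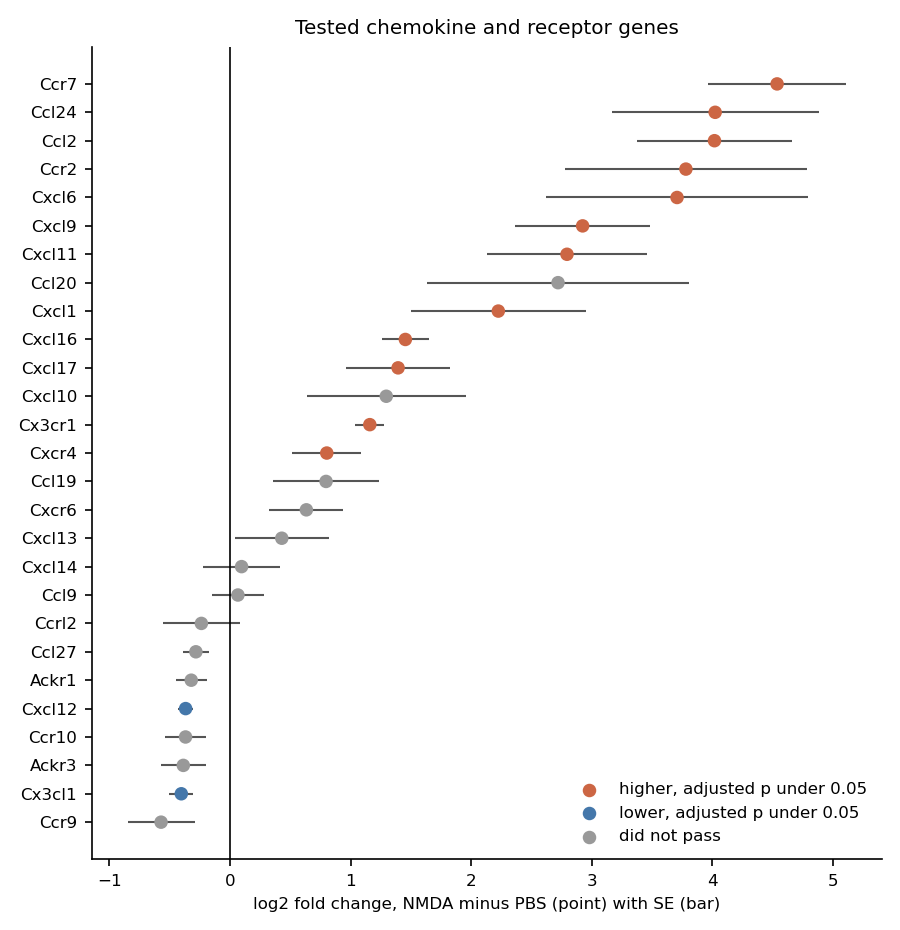
Log2 fold change (x axis, NMDA minus PBS) with its SE (bar) for 27 of the 28 tested members (y axis), coloured by whether it passed an adjusted p of 0.05. Those that rose run from Cxcr4 at 0.80 to Ccr7 at 4.54, and the 2 that fell, Cxcl12 and Cx3cl1, lie at -0.37 and -0.40.

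The monocyte attractants of the CC class were low with PBS, and Ccl2 was among the highest ligands with NMDA. Ccl2, the main ligand of Ccr2 (ENSRNOG00000007159, chromosome 10, 67005424 to 67007226), had 0.181, 0.432 and 1.23 CPM with PBS and 1.23, 8.99 and 19.8 with NMDA, a log2 fold change of 4.02 ± 0.65 (SE, n = 6 each; edgeR adjusted p = 0.000603). NMDA 1 lay just under PBS 5, the highest PBS library, and the other 5 NMDA libraries lay above all PBS libraries. Per gene length, its mean rose from 0.768 ± 0.550 to 13.1 ± 8.73 FPKM (SD, n = 6), which made it the third highest of the members with NMDA, after Cxcl14 and Ackr1. Ccl7 and Ccl12, neighbours of Ccl2 that also act through Ccr2, did not pass the filter. Ccl7 had 1 to 7 counts per PBS library and 9 to 184 per NMDA library, the 2 groups not overlapping after scaling. Ccl12 had 0 to 8 counts with PBS and 7 to 119 with NMDA. Fitted with no filter, they had log2 fold changes of 4.12 ± 0.63 and 4.23 ± 0.75 (edgeR adjusted p = 0.000421 and 0.00110), and that of Ccl12 was 5.14 without PBS 5.

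Of the other CC ligands only Ccl24 passed in the test. Ccl24, an eotaxin that attracts eosinophils through Ccr3, had 0, 0.306 and 0.866 CPM with PBS and 0.307, 4.40 and 10.9 with NMDA (log2 fold change 4.02 ± 0.86, edgeR adjusted p = 0.00321). All NMDA libraries but NMDA 1 lay above all PBS libraries. Ccl3, Ccl4 and Ccl5, which attract macrophages and T cells, were too low to be tested and summed to 11, 20 and 9 counts over the PBS libraries against 134, 97 and 189 over the NMDA libraries. With no filter, Ccl3 and Ccl5 passed at log2 fold changes of 3.30 and 4.04 (edgeR adjusted p = 0.00200 and 0.00252), and Ccl4, at 1.96, did not (adjusted p = 0.0541). Ccl4 passed without NMDA 1, at 2.18 (edgeR adjusted p = 0.0178), or without PBS 5, at 2.54 (0.0238). The value of Ccl5 was 5.21 without PBS 2, which held 6 of its PBS counts. Ccl3 and Ccl4 overlap by 887 bases in the annotation, so that reads of one may be counted in the other. Ccl20, which attracts Ccr6-bearing lymphocytes, had 0, 0.0495 and 0.990 CPM with PBS and 0.115, 0.722 and 5.13 with NMDA, which did not reach the threshold (2.72 ± 1.09, edgeR adjusted p = 0.0680). Without PBS 3 it passed at a log2 fold change of 3.86 (adjusted p = 0.0240), and it was at 1.55 without NMDA 6, the library with the highest value. Ccl17, a ligand of Ccr4, had 3 counts over the PBS libraries, all in PBS 1, and 26 over the NMDA libraries (2.65 with no filter, edgeR adjusted p = 0.0378), a call that ended when any of 10 single libraries was left out (adjusted p up to 0.0794). Without PBS 1 no PBS count of Ccl17 remained, and the fitted value of 5.02 then depended on the prior count.

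Of the 3 ligands of Cxcr3, which draw activated T cells and are typical targets of interferon gamma, 2 passed. Cxcl9 had 0, 0.0676 and 0.317 CPM with PBS and 0.407, 0.730 and 1.14 with NMDA (2.92 ± 0.56, edgeR adjusted p = 0.00140), and its groups did not overlap, with all NMDA libraries higher as in 9.43% of all genes tested. Cxcl11 had 0, 0.147 and 0.793 CPM with PBS and 0.354, 1.72 and 2.93 with NMDA (2.79 ± 0.67, edgeR adjusted p = 0.00570), with NMDA 2 alone inside the PBS range. PBS 5 was the highest PBS library of both, and without it their log2 fold changes were 3.82 and 3.68. Cxcl10 had 0.295, 0.645 and 3.57 CPM with PBS and 0.603, 2.46 and 5.14 with NMDA, short of the threshold (1.30 ± 0.66, edgeR adjusted p = 0.144). Its high PBS value was PBS 5, which exceeded 4 of the NMDA libraries. Without PBS 5, Cxcl10 passed at a log2 fold change of 2.17 (adjusted p = 0.0105).

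These 3 genes lie side by side on chromosome 14 (15689424 to 15728435 in the deposited table, with its genome build not stated there), and their promoters are shown. The fold changes of the 3 genes were not tested against each other. A link of promoter letters to expression was not tested either. The sequences are the 250 bases before the RefSeq start on GRCr8, 5′ to 3′, with matches to any of 5 motifs in capitals: the NF-kB motif (GGGA and TTCC with any 2 bases between), the interferon response motif (GAAA and GAAA with any 2 bases between), the STAT motif TTCNNNGAA, the AP-1 motif TGANTCA and the TATA motif TATAAA, each searched on both strands.
Cxcl9 (chr14:16006916-16007165, plus strand): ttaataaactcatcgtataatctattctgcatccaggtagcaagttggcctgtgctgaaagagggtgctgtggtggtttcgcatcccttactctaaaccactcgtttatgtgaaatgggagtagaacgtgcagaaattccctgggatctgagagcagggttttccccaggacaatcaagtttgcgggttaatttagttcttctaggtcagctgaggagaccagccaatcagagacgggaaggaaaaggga
Cxcl10 (chr14:15988816-15989065, plus strand): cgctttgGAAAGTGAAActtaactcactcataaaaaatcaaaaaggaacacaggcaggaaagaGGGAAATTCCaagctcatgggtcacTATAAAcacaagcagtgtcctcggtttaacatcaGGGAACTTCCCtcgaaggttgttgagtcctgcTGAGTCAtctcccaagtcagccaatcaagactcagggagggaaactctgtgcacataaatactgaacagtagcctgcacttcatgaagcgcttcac
Cxcl11 (chr14:15973478-15973727, plus strand): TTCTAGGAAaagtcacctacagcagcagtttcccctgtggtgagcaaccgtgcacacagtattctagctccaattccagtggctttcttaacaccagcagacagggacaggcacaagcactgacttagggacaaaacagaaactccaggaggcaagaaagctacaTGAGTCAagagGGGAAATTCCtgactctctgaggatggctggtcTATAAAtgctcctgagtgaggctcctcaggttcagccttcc
In Cxcl11 the NF-kB match GGGAAATTCC ends 65 bases before the start, 4 bases after an AP-1 match, and a TATA match lies from 41 to 36 bases before it. Cxcl10 holds the same NF-kB letters from 187 to 178 bases before the start, an overlapping pair of such matches from 128 to 118, and the interferon response match GAAAGTGAAA from 243 to 234. Cxcl11 also holds the STAT match TTCTAGGAA from 250 to 242 bases before the start. Cxcl9 held none of the 5 motifs in the window printed, which says only that these letters are not there. In the wider window counted below, which adds 50 bases after the start, Cxcl9 has a STAT match.

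Of the 4 CXC ligands that attract neutrophils through Cxcr2, both that could be tested rose. Cxcl1 had 0, 0.202 and 1.03 CPM with PBS and 0.268, 1.66 and 3.66 with NMDA (2.22 ± 0.72, edgeR adjusted p = 0.0290). NMDA 1 lay inside the PBS range and the other NMDA libraries lay above it. Leaving out NMDA 3, NMDA 6, PBS 3, PBS 4 or PBS 6 ended the call of Cxcl1 (edgeR adjusted p up to 0.0617). Cxcl6 had 0, 0.140 and 0.476 CPM with PBS and 0, 1.31 and 8.15 with NMDA (3.71 ± 1.08, edgeR adjusted p = 0.0179). Its value in NMDA 6 stood against 2.04 CPM in the next library, NMDA 5, and NMDA 1 had no count. The call held without NMDA 6 at a log2 fold change of 2.61 (adjusted p = 0.0431), and the value was 4.37 without PBS 5. On the log2(FPKM + 0.1) scale Cxcl6 was at 2.03 and did not pass (limma adjusted p = 0.0511). Cxcl2 and Cxcl3 were too low to be tested, with at most 3 counts in any PBS library and 0 to 40 and 0 to 34 in the NMDA libraries. With no filter their log2 fold changes were 3.43 and 3.13 (edgeR adjusted p = 0.0130 and 0.0199), and that of Cxcl3 was 2.55 without NMDA 6.

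All 4 of these genes lie within 132032 bases on chromosome 14 (17181062 to 17313093 in the deposited table). The 120 bases before the start of Cxcl1 and Cxcl6 are shown because both carry the same NF-kB match, in capitals, at nearly the same distance from the start.
Cxcl1 (chr14:17479322-17479441, minus strand): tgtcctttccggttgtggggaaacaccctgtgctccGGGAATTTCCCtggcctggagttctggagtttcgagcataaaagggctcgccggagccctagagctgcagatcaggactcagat
Cxcl6 (chr14:17596418-17596537, minus strand): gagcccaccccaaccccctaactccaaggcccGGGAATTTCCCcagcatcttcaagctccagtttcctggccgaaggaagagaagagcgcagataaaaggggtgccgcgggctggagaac
The capitals hold the NF-kB motif on each strand in overlapping frames, from 84 to 74 bases before the start of Cxcl1 and from 88 to 78 before that of Cxcl6. RefSeq promoters of 300 bases (250 before to 50 after the start) were matched to 41 of the 55 members, among them 10 of the 13 that rose. Ccl2 was not among them. The NF-kB motif was found in 6 of the 41 (Ccl7, Ccr3, Cxcl1, Cxcl10, Cxcl11 and Cxcl6) and in 1.30% of 33469 promoters. The interferon response motif was found in 2 of the 41 (Ccl19 and Cxcl10; 3.92% of all), the STAT motif in 6 (8.87%), the AP-1 motif in 7 (7.33%) and the TATA motif in 11 (14.2%). These matches describe the letters alone.

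**Figure D2:**
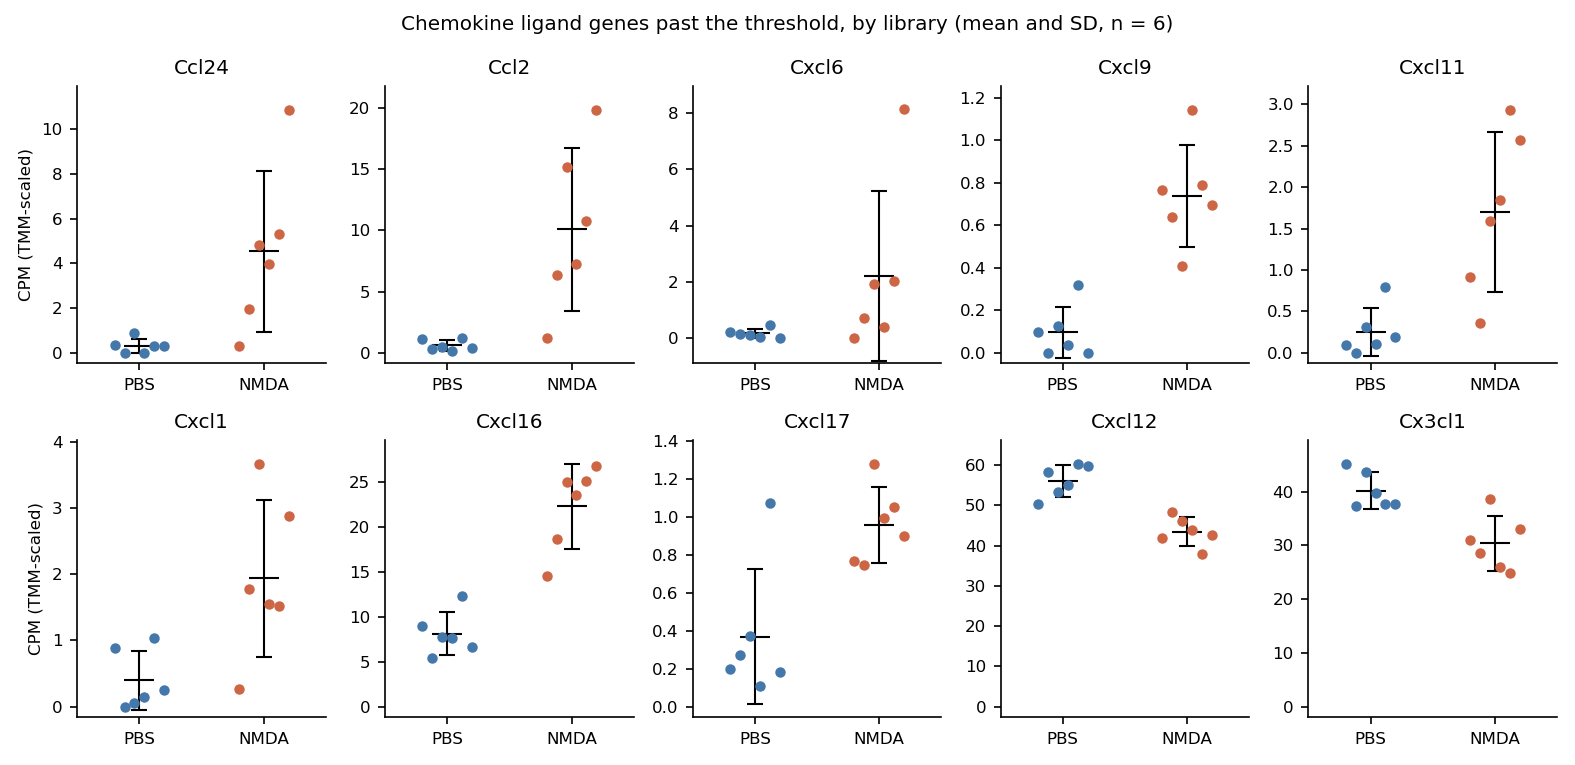
CPM (y axis, linear, a separate scale for each gene) of the 10 ligands past the threshold in each PBS and NMDA library (points, left to right by library number), with the mean and SD of the 6 libraries of each group. Ccl2 reaches 19.8 CPM in NMDA 6 and 1.23 in NMDA 1, and Cxcl12 and Cx3cl1 are the 2 genes with lower NMDA values.

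Cxcl16, unlike these ligands, was well expressed already with PBS. It encodes a membrane-bound chemokine and scavenger receptor of macrophages whose receptor is Cxcr6, and it had 5.41, 7.71 and 12.3 CPM with PBS and 14.6, 24.3 and 26.7 with NMDA (1.45 ± 0.20, edgeR adjusted p = 0.000189). The lowest NMDA library, NMDA 1, exceeded the highest PBS library, PBS 5. Cxcl17, a chemokine best known from mucosa, had 0.109, 0.236 and 1.07 CPM with PBS and 0.744, 0.948 and 1.28 with NMDA (1.39 ± 0.43, edgeR adjusted p = 0.0220). Only NMDA 3 exceeded PBS 5. The log2 fold change of Cxcl17 was 2.12 without PBS 5, and its call ended without PBS 1 or PBS 6 (edgeR adjusted p = 0.0514 and 0.0508).

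The 2 members that fell, Cxcl12 and Cx3cl1, were abundant with PBS. Cxcl12, which holds progenitors and lymphocytes in place through Cxcr4, had 50.2, 56.6 and 60.2 CPM with PBS and 37.8, 43.2 and 48.3 with NMDA (-0.37 ± 0.06, edgeR adjusted p = 0.000730). All its NMDA libraries lay below all PBS libraries, as in 8.66% of all genes tested. Cx3cl1, the fractalkine that neurons display to microglia, had 37.3, 38.7 and 45.1 CPM with PBS and 24.9, 29.8 and 38.7 with NMDA (-0.40 ± 0.10, edgeR adjusted p = 0.00668), with NMDA 3 alone inside the PBS range. The summed ganglion cell markers were also lower with NMDA, 216 to 555 CPM against 794 to 975, and highest in NMDA 3. Their part in the fall of Cx3cl1 was not tested. Of the 7 endothelial and pericyte markers 3 rose (20.4% of all genes tested did) and 1 fell (17.5%). They summed to 755 to 997 CPM with NMDA and 735 to 846 with PBS. Kdr made up most of these sums, at 585 to 823 CPM with NMDA and 604 to 707 with PBS. It did not pass (edgeR adjusted p = 0.205). The part of endothelial cells and pericytes in the fall of Cxcl12 was not tested.

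The other tested ligands did not pass. Cxcl14, the highest member per gene length, had a mean of 22.4 ± 9.58 FPKM with PBS and 24.9 ± 9.52 with NMDA (SD, n = 6), with a log2 fold change of 0.10 ± 0.32 (edgeR adjusted p = 0.845). Ccl27, a skin-homing chemokine and ligand of Ccr10, had 14.1, 15.5 and 19.0 CPM with PBS and 10.6, 13.3 and 16.1 with NMDA (-0.28 ± 0.11, edgeR adjusted p = 0.0503). DESeq2 and limma voom called Ccl27 lower (adjusted p = 0.0276 and 0.0182). Ccl19, a ligand of Ccr7 that guides dendritic cells and T cells to lymph nodes, had 0.443, 0.962 and 2.30 CPM with PBS and 0.957, 1.36 and 3.92 with NMDA (0.80 ± 0.44, edgeR adjusted p = 0.178). Without PBS 5, its highest PBS library, it passed at a log2 fold change of 1.17 (adjusted p = 0.0458). Cxcl13, the B cell attractant, had 1.55, 1.64 and 4.72 CPM with PBS and 1.30, 2.94 and 5.02 with NMDA (0.43 ± 0.39, edgeR adjusted p = 0.425). Ccl9, which acts through Ccr1, had a log2 fold change of 0.07 ± 0.22 (edgeR adjusted p = 0.845). Of the ligands not named so far, Ccl1, Ccl11, Ccl25, Ccl28 and Xcl1 had at most 9 counts in any library, and none of these 5 passed with no filter (lowest edgeR adjusted p = 0.383).

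Among the signalling receptors, 5 of 8 tested rose, against 20.4% of all genes tested, and 2 of the 5 (Ccr2 and Ccr7) had fewer than 6 PBS libraries above the level of the filter. Ccr7, the lymph node homing receptor of mature dendritic cells and naive T cells, showed the largest fold change of the tested members. It had 0, 0 and 0.198 CPM with PBS and 0.815, 1.16 and 1.66 with NMDA (4.54 ± 0.57, edgeR adjusted p = 0.000123). The 6 NMDA libraries held 23 to 45 counts each, and the PBS libraries, of which 4 had no count, at most 5. Without PBS 5 the log2 fold change of Ccr7 was 5.86. Ccr2, the receptor of inflammatory monocytes, had 0, 0.0699 and 1.23 CPM with PBS and 0.767, 1.72 and 9.95 with NMDA (3.78 ± 1.00, edgeR adjusted p = 0.0107). NMDA 6 and NMDA 5 were far above the rest, at 9.95 and 6.06 CPM, and PBS 5 lay above NMDA 1 and NMDA 2. Without PBS 5 the log2 fold change of Ccr2 was 5.87 (edgeR adjusted p = 0.00138), and without NMDA 6 it was 3.14.

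Cx3cr1, the fractalkine receptor of microglia, was well expressed already with PBS. Cx3cr1 had 8.23, 9.23 and 10.5 CPM with PBS and 15.5, 21.1 and 24.8 with NMDA (1.16 ± 0.12, edgeR adjusted p = 3.54e-05), the smallest adjusted p of the 28 members. Its groups did not overlap, and its log2 fold change stayed between 1.10 and 1.23 when each library was left out. Cxcr4, the receptor of Cxcl12, had 0.923, 1.09 and 1.55 CPM with PBS and 0.900, 2.09 and 3.06 with NMDA (0.80 ± 0.29, edgeR adjusted p = 0.0419). Its NMDA 3 lay below all PBS libraries and NMDA 2 inside their range. The call of Cxcr4 ended when any 1 of 9 libraries was left out (adjusted p up to 0.103) and with no filter (adjusted p = 0.0549).

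The other tested receptors did not pass. Ccr10 had a log2 fold change of -0.37 ± 0.17 (edgeR adjusted p = 0.10) and Ccr9, a gut-homing receptor, of -0.57 ± 0.28 (adjusted p = 0.126). Cxcr6, the receptor of Cxcl16 on T and NKT cells, had 0.198, 0.303 and 0.476 CPM with PBS and 0.248, 0.482 and 0.823 with NMDA (0.63 ± 0.31, edgeR adjusted p = 0.122), with 4 NMDA libraries above all PBS libraries. Ccr9 passed without NMDA 4, at -0.87 (adjusted p = 0.00713). Cxcr6 lies inside Fyco1, and Ccr9 overlaps it by 1858 bases. Fyco1 had a mean of 507 CPM with PBS and 418 with NMDA (-0.28, edgeR adjusted p = 0.0598), so that some of its reads may be counted in both receptors.

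Of the receptors below the filter, Cxcr2 reached the highest value, in 1 library. Cxcr2, the neutrophil receptor, had 0 to 15 counts per PBS library and 4 to 365 per NMDA library, with 365 in NMDA 6 and 91 in NMDA 5. Fitted with no filter its log2 fold change was 4.47 ± 1.38 (edgeR adjusted p = 0.0352), 2.91 without NMDA 6 (adjusted p = 0.0824) and 6.32 without PBS 5. Without NMDA 5 or any PBS library but PBS 5, the call of Cxcr2 ended too. The summed neutrophil markers ran from 2.29 to 6.15 CPM with PBS and from 5.52 to 52.7 with NMDA, highest in NMDA 6 and NMDA 5 (20.7) and, among PBS libraries, in PBS 5. Of the 10 markers 3 were tested and all 3 rose (20.4% of all genes tested did). One of these, S100a9, had a PBS median of 0.0196 CPM, below the 0.36 CPM of the filter. Its being tested thus leaned on its NMDA libraries. Of the markers too low to be tested, S100a8 (4.82 CPM), Mmp8 (0.694), Retnlg (0.381) and Camp (0.312) were highest in NMDA 6. Mpo, the myeloperoxidase gene, had no count in any NMDA library, and Elane, the elastase gene, reached 0.139 CPM at most. Ngp had a median of 0.432 CPM with PBS and 0.308 with NMDA. The part of these cells in the rise of Cxcr2 and of its ligands was not tested.

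Cxcr3, the receptor of activated T cells, had 0 to 6 counts with PBS and 4 to 48 with NMDA (3.51 ± 0.89 with no filter, edgeR adjusted p = 0.00994), and 5.00 without PBS 5. The summed T and NK cell markers ran from 0.665 to 2.62 CPM with PBS and from 3.05 to 8.98 with NMDA, without overlap. Of their 8 genes that were found, 3 were tested and 2 rose (20.4% of all genes tested did). Those that rose, Cd8a and Cd3e, had PBS medians of 0 and 0.0577 CPM, below the 0.36 CPM of the filter. Their being tested thus leaned on their NMDA libraries. Lck, at 0.554 to 1.35 CPM with PBS, did not pass (edgeR adjusted p = 0.0891). The part of T and NK cells in the values of Cxcr3 and Ccr7 was not tested. Ccr6 had 8 counts over the PBS libraries and 39 over the NMDA libraries (1.98, edgeR adjusted p = 0.0400 with no filter), a call that ended without any 1 of 7 libraries (adjusted p up to 0.108). Ccr1l1, a close relative of Ccr1, had no count with PBS and 14 over the NMDA libraries, at least 4.19-fold higher when 3 counts over the PBS group are taken as the floor (edgeR adjusted p = 0.0212 with no filter). Ccr4 had no count with PBS and 8 with NMDA, 5 of them in NMDA 6, and missed the threshold (edgeR adjusted p = 0.126). Its other 3 counts equal the floor. Ccr3, Ccr8, Cxcr5 and Xcr1 had at most 7 counts in any library and did not pass with no filter (lowest edgeR adjusted p = 0.145).

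With no filter on low counts, 23 of the 52 members with any count were higher (13.3% of all 23377 genes fitted) and 2 lower (12.1%). Of the 24 members below the filter 11 were called higher, against 3.08% of the genes below it. That share is over all genes with any count that failed the filter, down to the lowest. Of the 11, Ccl3, Ccl5, Ccl7 and Ccl12 each had 5 NMDA libraries above the filter level. The comparison is thus not like for like.

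**Figure D3:**
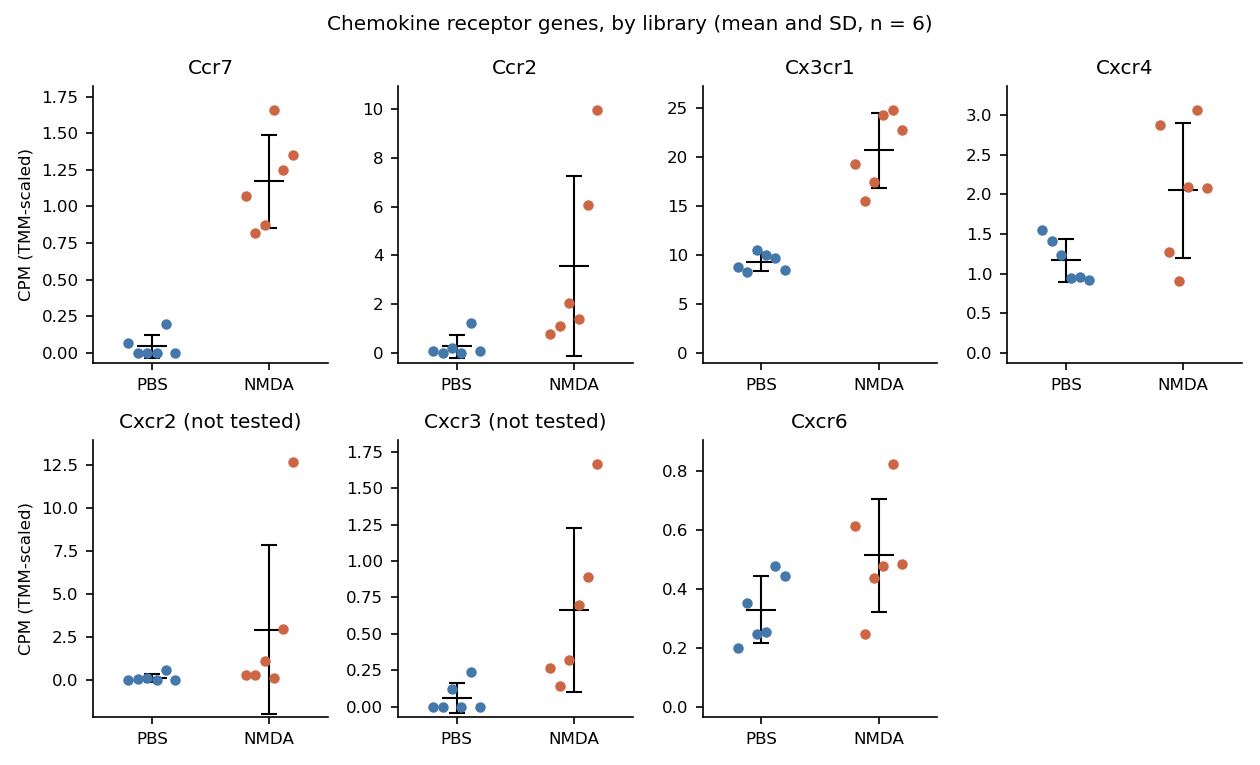
CPM (y axis, linear, a separate scale for each gene) of 7 receptor genes in each PBS and NMDA library (points, left to right by library number), with the mean and SD of each group of 6. Cx3cr1 and Ccr7 separate the groups, while Ccr2 and Cxcr2 are highest in NMDA 5 and NMDA 6.

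Of the 3 atypical receptors tested, 0 passed in edgeR, where 1 had an unadjusted p under 0.05, and DESeq2 called 1 (Ackr1) and limma voom 2 (Ackr1 and Ackr3) of them lower. Ackr1, the Duffy antigen receptor of venules and red cells and the second highest member per gene length, had 22.8, 28.9 and 32.2 CPM with PBS and 15.7, 22.1 and 28.0 with NMDA (-0.32 ± 0.13, edgeR adjusted p = 0.0635). Ackr3, a scavenger of Cxcl12 and Cxcl11, had 18.6, 20.2 and 22.4 CPM with PBS and 9.39, 14.8 and 26.0 with NMDA (-0.39 ± 0.19, edgeR adjusted p = 0.127). Of its NMDA libraries 5 lay below all PBS libraries and NMDA 3 above all of them. Without NMDA 3, Ackr3 passed at -0.60 (adjusted p = 0.00203). Ccrl2, which holds chemerin at the cell surface, had a log2 fold change of -0.24 ± 0.32 (edgeR adjusted p = 0.603). Ackr2 and Ackr4, scavengers of inflammatory and of homeostatic CC chemokines, had 31 and 21 counts over the PBS libraries and 23 and 30 over the NMDA libraries.

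Known ligand and receptor pairs were set side by side for 37 pairs with both genes among the members, 10 of them with both genes tested. Only Ccl2 and Ccr2 both rose in the test, at 4.02 and 3.78. With no filter 11 pairs had both genes higher, among them Ccr2 with Ccl2, Ccl7 and Ccl12, Cxcr2 with Cxcl1, Cxcl2, Cxcl3 and Cxcl6, and Cxcr3 with Cxcl9 and Cxcl11. In 2 pairs the ligand fell and the receptor rose: Cx3cl1 at -0.40 with Cx3cr1 at 1.16, and Cxcl12 at -0.37 with Cxcr4 at 0.80. In 4 pairs the ligand rose and the tested receptor did not pass: Cxcl16 with Cxcr6, Cxcl11 with Ackr3, and Ccl2 and Cxcl1 with Ackr1. Ccr7 rose while Ccl19 did not pass and Ccl21 had no count. These are transcripts of the same libraries, and pairs that share a gene are not independent.

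Many genes of the family lie in clusters, and the changes were set along them. With no filter, 3 of 5 genes from Ccl2 to Ccl1 on chromosome 10 (67005424 to 67131159) were higher, Ccl2, Ccl7 and Ccl12 but not Ccl11 or Ccl1. Of the 4 genes from Ccl5 to Ccl4 on the same chromosome (68322829 to 68468231) 2 were higher, and of the 4 from Cxcl2 to Cxcl6 on chromosome 14 all 4. Ccl17 and Cx3cl1 lie within 34706 bases on chromosome 19, Ccl17 higher with no filter and Cx3cl1 lower. Neighbours were thus not all called alike. Ccl1 and Ccl11 had at most 9 counts in any library, and the call of Ccl17 ended with most single libraries left out.

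The genes that relay chemokine signals were split. Of 48 tested genes of receptor signalling and migration 24 rose (50%, against 20.4% of all genes tested) and 10 fell (20.8%, against 17.5%), with a median log2 fold change of 0.15. The 6 rises with the smallest adjusted p were Rac2, the Rac GTPase of blood cells, by 2.53, Vav1, its exchange factor, by 2.20, Ncf1, an NADPH oxidase subunit gene, by 2.04, Pik3cg, the kinase activated by G protein beta-gamma subunits, by 1.74, Prex1, another Rac exchange factor, by 0.86 and Plcb3, a phospholipase gene, by 0.63 (edgeR adjusted p from 8.77e-05 to 0.000222). The 6 falls with the smallest adjusted p were Prkcb, a protein kinase C gene, at -0.60, Gng2 and Gnb1, G protein subunit genes, at -0.78 and -0.58, Elmo1, a partner of Rac exchange factors, at -0.44, Grk3, a receptor kinase gene, at -0.42 and Tiam1, a Rac exchange factor, at -0.35 (edgeR adjusted p from 6.28e-05 to 0.00216). Gng10 and Dock2 were not analysed here.

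Of 18 tested genes that process or present chemokines or encode related ligands, 10 rose (55.6%, against 20.4% of all genes tested). Cmklr1, the chemerin receptor gene, rose by 2.44 on the log2 scale and Mmp12, a macrophage protease gene, by 2.53. Cd74, which encodes the receptor of the cytokine MIF, rose by 2.39, Sdc1, a heparan sulfate carrier on which chemokines are held, by 1.72, Csf1, the macrophage growth factor gene, by 1.18 and Adam17, a sheddase that releases Cx3cl1, by 0.48 (edgeR adjusted p from 0.000148 to 0.00592). Adam10, the other sheddase of Cx3cl1 and Cxcl16, rose by 0.19 (edgeR adjusted p = 0.0371). None of the 18 fell (17.5% of all genes tested did), by edgeR, DESeq2 or limma voom, and 0 were lower at an unadjusted p under 0.05. The platelet chemokine gene Ppbp had no count in any library.

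The NMDA libraries differed in the strength of the chemokine response. Of the 13 members that rose, 6 were highest in NMDA 6, 3 in NMDA 5, 2 in NMDA 3 and 2 in NMDA 4, and 6 were lowest in NMDA 1 and 5 in NMDA 2. Within PBS, 9 of the 13 were highest in PBS 5. All ligands but the 4 abundant ones (Cxcl12, Cx3cl1, Cxcl14 and Ccl27) summed to 10.1 to 30.7 CPM with PBS, the highest in PBS 5, and to 24.8 (NMDA 1), 41.1 (NMDA 2), 80.0 (NMDA 3), 55.6 (NMDA 4), 69.2 (NMDA 5) and 103 (NMDA 6) with NMDA. PBS 5 thus lay above NMDA 1. The summed markers of monocytes and their macrophages ran from 64.6 to 115 CPM with PBS, highest in PBS 5. With NMDA they ran from 121 (NMDA 1) and 160 (NMDA 2) to 434 (NMDA 5) and 611 (NMDA 6). Of the 9 tested markers 6 were higher (20.4% of all genes tested were). In NMDA 6 the sum was mostly Fn1 (283 CPM), Vcan (150) and Lyz2 (139). Fn1 and Lyz2 rose in the test, and Vcan did not pass (edgeR adjusted p = 0.342). The part of monocytes and their macrophages in the chemokine values was not tested. Lens and pigment epithelium markers, tissues that adjoin the dissected retina, were lowest in NMDA 1 (55.7 and 15.7 CPM, against up to 2513 and 259 in other NMDA libraries). In PBS 5 the pigment epithelium markers summed to 198 CPM, against 67.0 to 102 in the other PBS libraries. The part of these tissues was not tested either. Ganglion cell markers summed to 515 CPM in NMDA 1, against 216 to 555 in the other NMDA libraries and 794 to 975 with PBS. Rod markers summed to 44752 CPM in NMDA 1, inside the PBS range of 44167 to 47003. In the other NMDA libraries they summed to 30572 to 38369 CPM. The strength of the injury in NMDA 1 was not tested. Without PBS 5 and NMDA 6 together, 12 members were higher, 11 of them among the 13. Cxcl6 and Cxcr4 dropped out and Cxcl10 came in.

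**Figure D4:**
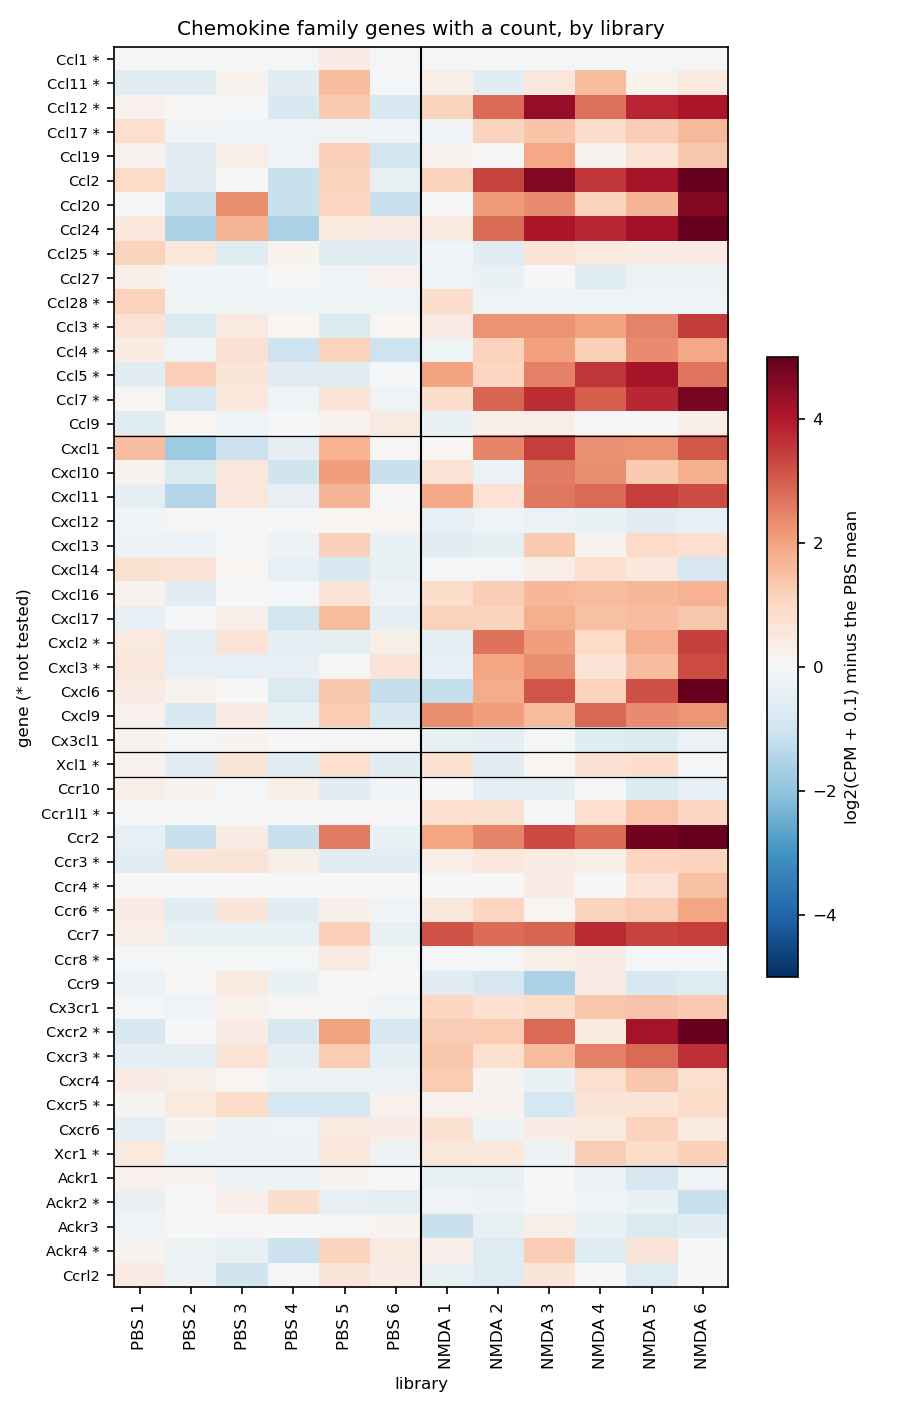
Colour gives log2(CPM + 0.1) minus the PBS mean for 51 of the 52 members with a count (rows, by class, with an asterisk on those not tested) in the 12 libraries (columns), from blue (lower) to red (higher). NMDA 1 is pale for Ccl2, Ccl24 and the Cxcr2 ligands but red for Ccr7 and Cxcl9, and PBS 5 is the reddest PBS library.

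NMDA 1 was not low for every member. It held 1.07 CPM of Ccr7, 0.767 of Cxcl9 and 19.3 of Cx3cr1, all within the range of the other NMDA libraries, and 2.87 of Cxcr4, the second highest value. Its Ccl2, Ccl24 and Cxcl1, at 1.23, 0.307 and 0.268 CPM, were the lowest of the NMDA libraries, and its Cxcl6, Cxcl2 and Cxcl3 had no count.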

How the data were processed

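The authors deposited 1 table with a whole-number read count and an FPKM value (fragments scaled by gene length and library total) for each gene and library. Bowtie2, RSEM 1.3.1 and DESeq2 1.4.5 are named in the submitters' processing notes, with no role given. Neither the genome build nor the use of strand is given in the sources used here, so that reads of overlapping genes may be shared. Library totals ran from 16415611 to 34022023 counts, so the lowest members rest on a few counts per library.

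The deposited counts were fitted for all genes with edgeR 4.0.16 (R 4.3.3): a filter of 10 counts per gene at the median library size in 6 libraries (total of 15), TMM scaling, robust quasi-likelihood test and Benjamini-Hochberg adjustment over 16260 genes. CPM are on TMM-scaled totals. The SE of an edgeR log2 fold change is approximate: its absolute value divided by the square root of the F statistic of the test. The deposited FPKM values served to compare levels between genes and as an alternative on the log2(FPKM + 0.1) scale. Other alternatives were DESeq2 1.42.0, limma 3.58.1 voom, other scalings and filters, a replicate block and each library left out. Leaving out PBS 5 and NMDA 6 together, and each library with no filter, was chosen after seeing the data. The edgeR fit was tested on simulated data. Figures were drawn with matplotlib 3.10.9.

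The members, marker lists, signalling and processing lists and ligand-receptor pairs were chosen with earlier results of these data known. Each member past the threshold, and each tested partner of one, is named with its values, and of each pathway list the 6 with the smallest adjusted p in each direction. Names of other genes, and the promoters of Cxcl10, Cxcl1 and Cxcl6, were chosen after values were seen. Promoter sequences are RefSeq's on GRCr8. Each library is labelled as a rat of its own. No pair of libraries of the same group was as alike as repeat counts of 1 library would be. The values of 1 member, which is part of the counts, are not reported here.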

Additional observations from a re-analysis of the deposited data

Results flagged for a closer look

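In each group of 6 libraries, the gap between the highest or lowest library and its neighbour was set against the range of the group on the log2 CPM scale, for 56 groups (28 tested members in 2 conditions). In 2 of them (3.57%) the share exceeded Dixon's critical value for 6 libraries, and chance gives about 1 in 20. In the NMDA group Cxcl1 was low in NMDA 1, at 0.268 CPM against 1.51 to 3.66 in the other libraries, a share of 0.642. In the PBS group Cxcl13 was high in PBS 5, at 4.72 CPM against 1.55 to 1.92, a share of 0.811.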

How the results depend on the processing

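The count of 13 higher and 2 lower members was read again under each alternative. With DESeq2 size factors or library size only the same 13 members were higher, as with the DESeq2 Wald test, which called 4 lower. Library size only moved the median of all genes (log2 fold change) from 0.01 to 0.06 (4233 genes higher and 2323 lower, against 3315 and 2852), and limma on FPKM gave 4214 and 2366. Limma voom called 14 higher and 5 lower, and limma on FPKM called 12 higher (without Cxcl6). With no filter 23 were higher, and with a filter of 1 CPM in 6 libraries 7, of the 18 then tested. With 1 library left out, the number higher ranged from 11 of 28 tested (without NMDA 6) to 19 of 33 tested (without PBS 5), where 5 of the 7 gained members (Ccl12, Ccl3, Ccl4, Ccl5 and Ccl7) had been below the filter, and the number lower from 2 to 5 (5 without NMDA 3, and 4 without PBS 3 or PBS 5). With no filter as well, they ranged from 17 to 24 and from 2 to 5. Apart from these changes in the number tested, the cause was not tested.

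The direction turned in genes that had not passed. With 1 library left out, the log2 fold change of Ccl9 ranged from -0.055 (without PBS 1) to 0.19 and that of Cxcl14 from -0.072 (without NMDA 4) to 0.27, and it was also below 0 without PBS 5 (-0.03). With no filter as well, that of Ccl25 ranged from -0.13 (without PBS 6) to 0.97 and was below 0 without NMDA 3 (-0.10), PBS 3 (-0.05) or PBS 5 (-0.11). That of Ccl28 ranged from -3.00 to 2.25 (without PBS 1), and that of Ackr4 from -0.27 (without NMDA 3) to 0.80, with -0.01 without PBS 4. With the replicate number as a block, 10 were higher (without Cxcl1, Cxcl6 and Cxcr4, edgeR adjusted p = 0.109, 0.0720 and 0.0893) and Ccr10 was lower at -0.35 (edgeR adjusted p = 0.0337). Same-numbered libraries had deviations that correlated at -0.190 to 0.153, and no label ties a number to a litter or day, so the numbers were not taken to pair the rats. Members with a few counts per library are limited by depth.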
